A study of Bos taurus with 8 samples.

Results

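Eukaryotic translation initiation and elongation factors were examined in BUTE, a line of immortalized uterine epithelial cells from 1 Holstein cow, after progesterone or its vehicle. The members are the genes whose symbol begins with EIF1 to EIF6 or with EEF1 or EEF2, without the EIF2AK kinases. The rule took 60 of 28709 genes in the deposited table, and 59 of them were among the 13557 genes with enough counts to be tested. The remaining member, the germline-type cap-binding gene EIF4E1B, had a count of 0 in all 8 libraries. In both groups, wild-type cells had first been held for 24 h without serum and steroids in the presence of insulin-like growth factor 1 (IGF1). The progesterone group (4 libraries) then received 10 µM progesterone with 50 ng/ml IGF1 for 24 h, and the DMSO group (4 libraries) received DMSO with the same IGF1 for the same time. All libraries come from this line. Nothing in the labels ties them to separate cultures, so p-values measure only the spread between libraries, which may be technical.

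Translation starts when eIF2 carries the initiator tRNA to the small ribosomal subunit, which scans from the cap to the start codon with the help of eIF1, eIF1A, eIF3 and eIF5. The cap is bound by eIF4E, which joins the scaffold eIF4G and the helicase eIF4A in the eIF4F complex, and eIF2B recharges eIF2 with GTP. The eEF1 factors then bring aminoacyl-tRNA to the ribosome, and eEF2 moves the ribosome along the mRNA. Signalling reaches this machinery mainly through phosphorylation of eIF2, of the eIF4E-binding proteins and of eEF2, none of which is measured by mRNA.

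Estimated counts summed to between 23810800 and 32509800 per library, and the groups overlapped in depth. Libraries are named by the deposited columns (progesterone R1, R2, R3 and R6, and DMSO R1, R3, R7 and R9). DMSO R7 and R9 stood apart from the other 6 libraries: they correlated with each other at 0.992 over log2 CPM, the count per library scaled to a common total, and with the others at 0.949 to 0.962, while the others correlated among themselves at 0.983 to 0.992. These correlations describe the libraries and share the same genes. The fit was therefore repeated without R7 and R9, which leaves 4 progesterone and 2 DMSO libraries, and its values are given beside those of the members described in full. Of the epithelial markers, KRT8 averaged 1740 CPM with progesterone and 2481 CPM with DMSO, but EPCAM averaged 0.426 and 1.42 CPM and KRT18 1.43 and 4.06 CPM. The other 3 had higher means with progesterone, CDH1 at 16.3 and 12.7 CPM, KRT19 at 472 and 446.0 CPM and KRT7 at 20.1 and 17.3 CPM. Summed over 6 epithelial markers, the level lay between 1739 and 2659 CPM with progesterone and between 2821 and 3073 CPM with DMSO. The sum over 6 stromal or smooth muscle markers lay between 8876 and 9957 CPM with progesterone and between 8768 and 14331 CPM with DMSO. Of these, VIM averaged 6832 CPM with progesterone and 6360 CPM with DMSO, and COL1A1 1698 and 3956 CPM, with its highest values in R7 and R9. Of the leukocyte markers, PTPRC was at 0, CD3E averaged 0.0531 CPM with progesterone and 0.125 CPM with DMSO, and CD14 9.75 and 7.26 CPM. Of the endothelial markers, VWF averaged 4.02 and 2.78 CPM, PECAM1 0.296 and 0.348 CPM and CDH5 0.0531 and 0.0894 CPM. PTPRC, CD3E, PECAM1 and CDH5 had too few counts to be tested, and none of the tested markers passed. The part of cell state in the results on translation factors was not tested.

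With progesterone, 5 of the 59 tested members rose and none fell (edgeR quasi-likelihood test, Benjamini-Hochberg adjustment over all genes, threshold 0.05). They were EIF1B, EIF2S3, EIF3F, EIF3H and EIF4B, higher by 1.26-fold to 1.61-fold. The 5 make up 8.47% of the tested members, while 2.65% of all genes tested passed, 1.69% higher and 0.959% lower. The other 54 did not pass, and 12 of these had an adjusted p between 0.05 and 0.1, 7 at a higher and 5 at a lower level with progesterone. The direction was mixed: 25 members had a positive and 34 a negative log2 fold change, with a median of -0.04 beside -0.01 for all genes tested, and a range from -0.48 to 0.69. The groups did not overlap at 22 members, 13 higher and 9 lower with progesterone. That is 37.3% of the members, beside 16.2% of all genes tested, where 7.95% were higher and 8.22% lower. An unadjusted p under 0.05 was reached by 27 members (45.8%), beside 26.8% of all genes: 15 were higher and 12 lower, beside 12.3% and 14.5%.

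Without DMSO R7 and R9, 3 members passed, EIF1B, EIF3F and EIF4A2, all higher with progesterone. That is 5.08% of the members, beside 1.18% of all genes in either direction and 0.995% higher. EIF1B also passed when any single library was left out, with an edgeR adjusted p between 0.00835 and 0.0405. EIF2S3, EIF3F, EIF3H and EIF4B passed without DMSO R1 or without DMSO R3, but not without any 1 of the other 6 libraries, where their edgeR adjusted p ran from 0.0665 to 0.142. In edgeR without DMSO R1, 13 members passed (8 higher and 5 lower), and so did 1782 of all genes (818 higher and 964 lower). Without DMSO R3, 10 members passed (7 higher and 3 lower), and so did 795 of all genes (359 higher and 436 lower). In both fits more of all genes fell than rose, so the members that fell are not read as a trait of the translation factors. DESeq2 called 18 members (30.5%, beside 13.5% of all genes with an adjusted p there), 13 higher and 5 lower. Limma voom called 4 (6.78%, beside 2.04% of all genes), all higher. Where R7 and R9 were given their own term, 2 members passed, EIF1B and EIF4A2, beside 2.05% of all genes. The plot of fold changes by role gives the value and interval of every tested member.

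**Figure D1:**
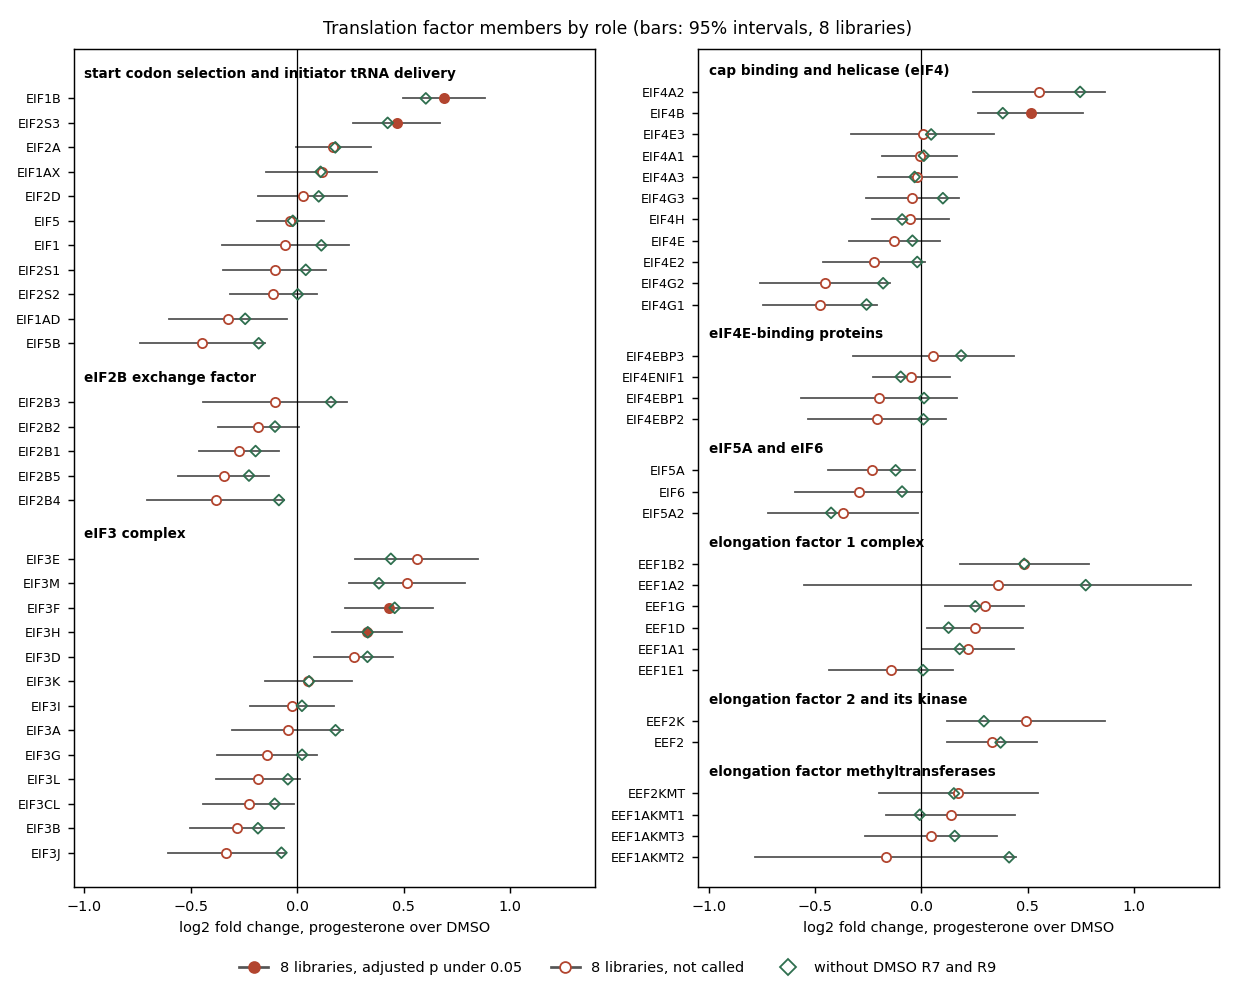
Each tested member is placed by its log2 fold change, progesterone over DMSO (horizontal axis), within its role. Circles with bars are the values and 95% intervals with 8 libraries, filled where the adjusted p was under 0.05, and diamonds are the values without DMSO R7 and R9. The 5 filled circles lie between 0.33 and 0.69, and the eIF2B members all lie left of 0 with 8 libraries.

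Among the factors of start codon selection and initiator tRNA delivery, 2 of 11 rose and none fell, with a median log2 fold change of -0.03. EIF1B (Entrez Gene 513481, chromosome 22) encodes a close relative of the start codon fidelity factor eIF1. Its level was 130.1, 130.2, 131 and 116 CPM in progesterone R1, R2, R3 and R6, against 83.1, 85.5, 76.7 and 70.0 CPM in DMSO R1, R3, R7 and R9. All progesterone libraries were above all DMSO libraries. The mean was 127 ± 7.07 CPM with progesterone and 78.8 ± 6.94 CPM with DMSO (SD, n = 4 each), a rise of 1.61-fold (log2 fold change 0.69 ± 0.09 SE, with an edgeR adjusted p of 0.00784). It also passed when R7 and R9 were left out, at 0.60 ± 0.09 (edgeR adjusted p = 0.00944). EIF1 itself, the main form in most tissues, overlapped between the groups at 397 ± 47.1 CPM with progesterone and 412 ± 67.1 CPM with DMSO. Its log2 fold change of -0.06 had a 95% interval from -0.35 to 0.24 and became 0.11 without R7 and R9. The ratio of EIF1B to EIF1 counts, chosen after the values were seen, was between 0.284 and 0.373 with progesterone and between 0.158 and 0.264 with DMSO. This ratio uses the same EIF1B values, so it is not separate support.

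EIF2S3 (512350, chromosome X), the gamma subunit of eIF2 that binds GTP and the initiator tRNA, was at 300.2, 343, 309.7 and 357 CPM in progesterone R1, R2, R3 and R6. In DMSO R1, R3, R7 and R9 it was at 239, 253, 212 and 243 CPM. No DMSO library reached the lowest progesterone library. It rose 1.38-fold (log2 fold change 0.47 ± 0.09 SE, with an edgeR adjusted p of 0.0333), and without R7 and R9 the change was 0.43 ± 0.10 and did not pass (edgeR adjusted p = 0.0799). The other eIF2 subunits did not pass. EIF2S1, the alpha subunit that the stress kinases phosphorylate, had a log2 fold change of -0.11 (95% interval -0.35 to 0.13), and EIF2S2, the beta subunit, of -0.11 (-0.32 to 0.09). When R7 and R9 were left out, these were 0.040 and 0.0027. The ratio of EIF2S3 to EIF2S1 counts, also chosen after the values were seen, was 3.20, 3.17, 2.91 and 3.13 in progesterone R1, R2, R3 and R6, against 2.50, 2.27, 1.86 and 1.82 in DMSO R1, R3, R7 and R9. The ratio was higher in every progesterone library than in any DMSO library. It uses the same EIF2S3 values, so it is not separate support.

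EIF5B, the GTPase that joins the ribosomal subunits, was at 157 ± 10.0 CPM with progesterone and 213 ± 42.8 CPM with DMSO (SD, n = 4 each) and did not pass (log2 fold change -0.45 ± 0.13 SE, with an edgeR adjusted p of 0.0830). Its DMSO values were 183 and 175 CPM in R1 and R3 and 228 and 268 CPM in R7 and R9. Leaving out R7 and R9 gave a log2 fold change of -0.18. EIF1AD, a nuclear protein with an eIF1A-like domain, was at 15.3 ± 1.91 CPM with progesterone and 19.2 ± 1.96 CPM with DMSO and did not pass (edgeR adjusted p = 0.137). Its log2 fold change was -0.33, and -0.24 without R7 and R9. The remaining members of this group, EIF1AX, EIF2A, EIF2D and EIF5, had log2 fold changes between -0.03 and 0.17. A gene annotated as similar to EIF1AX held at most 31 counts in a library, and a pseudogene of EIF5B at most 3.08% of the counts of EIF5B.

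**Figure D2:**
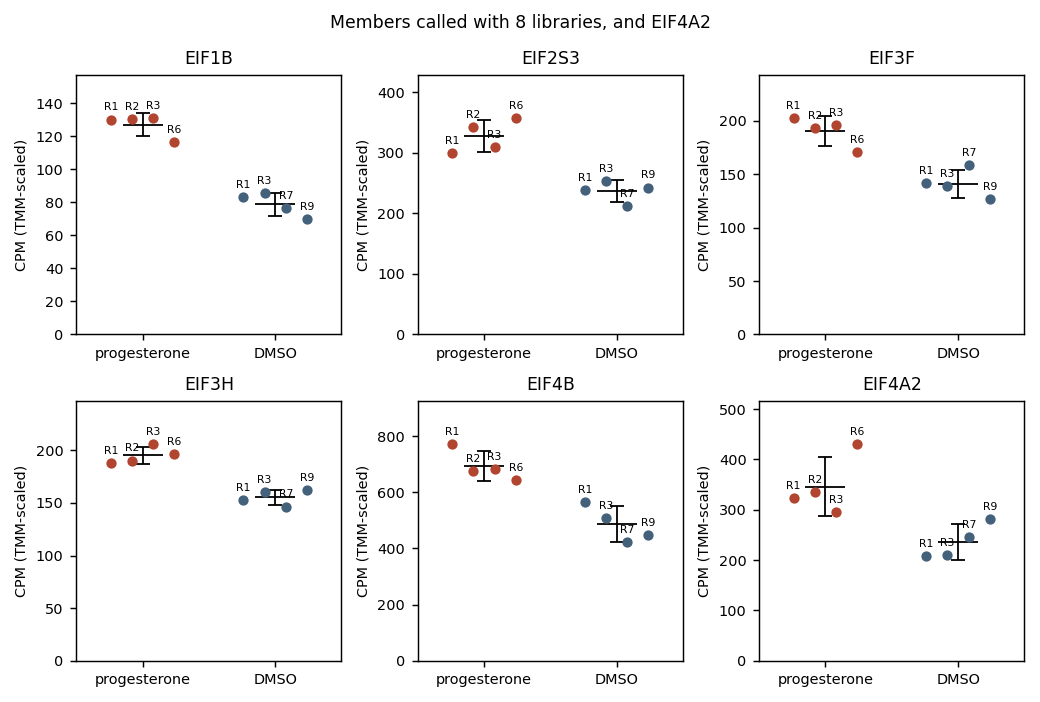
Points give the level in each library (vertical axis, CPM after TMM scaling), progesterone left of DMSO, for the 5 members called with 8 libraries and for EIF4A2, with the mean and SD (n = 4) in black. At all 6 genes the lowest progesterone library is above the highest DMSO library.

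The 5 subunits of eIF2B, the exchange factor that the stress response inhibits, all had a negative log2 fold change with 8 libraries, between -0.38 and -0.10, and none passed. EIF2B5 (783760, chromosome 1), the catalytic epsilon subunit, was at 51.6, 48.9, 53.3 and 47.9 CPM in progesterone R1, R2, R3 and R6, against 55.4, 63.7, 63.8 and 73.3 CPM in DMSO R1, R3, R7 and R9. The groups did not overlap, and the log2 fold change was -0.34 ± 0.10 SE (edgeR adjusted p = 0.0739). The regulatory alpha subunit EIF2B1 was at 34.0 ± 0.906 CPM with progesterone and 41.2 ± 3.13 CPM with DMSO (SD, n = 4 each), and the regulatory beta subunit EIF2B2 at 40.8 ± 1.15 and 46.3 ± 3.78 CPM. Neither overlapped between the groups, and their edgeR adjusted p was 0.0885 and 0.201. The groups thus did not overlap at 3 of the 5 subunits (60%), all lower with progesterone, beside 8.22% of all genes tested. EIF2B4, the delta subunit, was at 31.3, 29.4, 33.2 and 33.5 CPM in progesterone R1, R2, R3 and R6, against 32.7, 35.5, 45.1 and 52.9 CPM in DMSO R1, R3, R7 and R9. DMSO R1 lay within the progesterone range, and DMSO R3, R7 and R9 lay above it. The log2 fold change of EIF2B4 was -0.38 with 8 libraries and -0.09 without R7 and R9. In the remaining 6 libraries, EIF2B5 was at -0.23, EIF2B1 at -0.20, EIF2B2 at -0.10 and EIF2B3, the gamma subunit, at 0.16.

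The eIF3 complex, the large scaffold, holds the small subunit, mRNA and other factors together. Of its 13 subunits, 2 rose, none fell and 11 did not pass, with a median log2 fold change of -0.02 (0.06 without R7 and R9) and a range from -0.33 to 0.56. The risers were EIF3F and EIF3H, which encode the pair of subunits with an MPN domain. EIF3F (513793, chromosome 15) was at 203, 193, 196 and 171 CPM in progesterone R1, R2, R3 and R6, against 141, 139, 158 and 127 CPM in DMSO R1, R3, R7 and R9. The groups did not overlap. It rose 1.35-fold (log2 fold change 0.43 ± 0.09 SE, with an edgeR adjusted p of 0.0437), with 0.46 ± 0.09 without R7 and R9 (edgeR adjusted p = 0.0481). EIF3H (506873, chromosome 14) was at 188, 190.3, 206 and 196 CPM in progesterone R1, R2, R3 and R6, against 153, 160.3, 147 and 162 CPM in DMSO R1, R3, R7 and R9. The spread within each group was narrow, 7.92 CPM with progesterone and 7.23 CPM with DMSO (SD, n = 4 each). It rose 1.26-fold (0.33 ± 0.07 SE, with an edgeR adjusted p of 0.0489), and its log2 fold change without R7 and R9 was also 0.33 (edgeR adjusted p = 0.0904).

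Over the eIF3 complex, the groups did not overlap at 5 subunits higher and 1 lower with progesterone (46.2%, beside 16.2% of all genes tested). Besides EIF3F and EIF3H, another 3 eIF3 subunits were higher in every progesterone library than in any DMSO library and did not pass. EIF3E, a subunit that contacts the cap-binding complex, was at 267 ± 38.1 CPM with progesterone and 181 ± 25.8 CPM with DMSO (SD, n = 4 each; log2 fold change 0.56 ± 0.13 SE, with an edgeR adjusted p of 0.0519). EIF3M was at 208 ± 27.8 and 145 ± 19.3 CPM (0.52 ± 0.12, edgeR adjusted p = 0.0541). EIF3D, which can itself bind certain mRNA caps, was at 311 ± 21.4 and 259 ± 14.3 CPM (0.26 ± 0.08, edgeR adjusted p = 0.0946). Progesterone R6 held the highest value of EIF3E, 319.7 CPM, and of EIF3M, 242 CPM, but the lowest progesterone values of EIF3F, 171 CPM, and of EIF3D, 282 CPM. In the fit with 6 libraries the log2 fold changes of EIF3E, EIF3M and EIF3D were 0.44, 0.38 and 0.33.

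EIF3B, the subunit that anchors the peripheral arm, was at 194, 169, 206 and 167 CPM in progesterone R1, R2, R3 and R6, against 209, 213, 252 and 221 CPM in DMSO R1, R3, R7 and R9. These groups did not overlap, and the gene did not pass (log2 fold change -0.28 ± 0.10 SE, with an edgeR adjusted p of 0.117). EIF3J, the loosely attached subunit, and the gene listed as EIF3CL, the only entry for the core C subunit among the members, had log2 fold changes of -0.33 and -0.23. Leaving out R7 and R9 gave -0.18 for EIF3B, -0.07 for EIF3J and -0.11 for EIF3CL. EIF3A, EIF3G, EIF3I, EIF3K and EIF3L lay between -0.18 and 0.05. A gene annotated as a pseudogene of EIF3M held at most 8.94% of that gene's estimated counts in a library, one similar to EIF3F at most 2 counts, and one similar to EIF3G none.

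Of 11 tested genes of cap binding and mRNA unwinding, EIF4B rose, none fell and 10 did not pass, with a median log2 fold change of -0.04. EIF4B (505850, chromosome 5), the RNA-binding partner that stimulates the eIF4A helicase, was at 772, 675, 684 and 644 CPM in progesterone R1, R2, R3 and R6. It was at 565, 510.2, 422 and 448 CPM in DMSO R1, R3, R7 and R9, with R7 and R9 the lowest. The rise was 1.43-fold (log2 fold change 0.51 ± 0.11 SE, with an edgeR adjusted p of 0.0450), and 0.38 ± 0.11 without R7 and R9 (edgeR adjusted p = 0.112).

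EIF4A1 and EIF4A2 encode the paralogous eIF4A helicases, and the difference between their changes was not tested. EIF4A2 (286819, chromosome 1) was at 322, 335, 296 and 430.2 CPM in progesterone R1, R2, R3 and R6, against 208, 209, 246 and 282 CPM in DMSO R1, R3, R7 and R9. The groups did not overlap, and progesterone R6 was the highest. It did not pass with 8 libraries (log2 fold change 0.55 ± 0.14 SE, with an edgeR adjusted p of 0.0634) and did so with R7 and R9 left out (0.75 ± 0.14, edgeR adjusted p = 0.0405). With any single library left out it did not pass (edgeR adjusted p between 0.0522 and 0.143), and without progesterone R6 its log2 fold change was 0.43. EIF4A1 was at 735 ± 23.5 CPM with progesterone and 739 ± 33.2 CPM with DMSO (SD, n = 4 each), with a 95% interval of its log2 fold change from -0.19 to 0.17. The ratio of EIF4A2 to EIF4A1 counts does not depend on the scaling of a library. This ratio was also chosen after the values were seen and uses the same EIF4A2 values, so it is not separate support. It was 0.456, 0.444, 0.393 and 0.595 in progesterone R1, R2, R3 and R6, against 0.277, 0.289, 0.349 and 0.361 in DMSO R1, R3, R7 and R9. Every progesterone library was above every DMSO library.

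None of the 3 scaffold genes passed. EIF4G1 (444858, chromosome 1), the main scaffold of eIF4F, was at 694, 641, 642 and 574 CPM in progesterone R1, R2, R3 and R6, against 782, 758, 1027 and 982 CPM in DMSO R1, R3, R7 and R9. The groups did not overlap, and R7 and R9 were the highest (log2 fold change -0.48 ± 0.12 SE, with an edgeR adjusted p of 0.0637, and -0.26 without R7 and R9). EIF4G2, a related protein that lacks the eIF4E-binding part and serves cap-independent initiation, was at 885 ± 65.8 CPM with progesterone and 1212 ± 236 CPM with DMSO (-0.45 ± 0.14 SE, with an edgeR adjusted p of 0.0871). Its DMSO values were 1058 and 967 CPM in R1 and R3 and 1373 and 1450.1 CPM in R7 and R9, and its log2 fold change without these was -0.18. EIF4G3, the other eIF4E-binding scaffold, was at 251 ± 20.4 CPM with progesterone and 259 ± 26.4 CPM with DMSO and overlapped, with a 95% interval of its log2 fold change from -0.26 to 0.18 and a value of 0.10 without R7 and R9. The ratio of EIF4G3 to EIF4G1 counts was also chosen after the values were seen and uses the same EIF4G1 values, so it is not separate support. It was between 0.372 and 0.432 with progesterone and between 0.277 and 0.311 with DMSO, so the groups did not overlap. With R7 and R9 left out, the remaining DMSO libraries were at 0.311 and 0.304.

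EIF4E, the cap-binding protein itself, was at 53.8 ± 4.94 CPM with progesterone and 58.8 ± 4.67 CPM with DMSO (SD, n = 4 each), with a 95% interval of its log2 fold change from -0.34 to 0.09 and a value of -0.13, or -0.043 without R7 and R9. Its relatives EIF4E2 and EIF4E3, the helicase partner EIF4H and the exon junction helicase EIF4A3 had log2 fold changes between -0.22 and 0.00. Transcripts of a pseudogene of EIF4E held at most 3.19% of the estimated counts of EIF4E in a library.

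The eIF4E-binding proteins hold eIF4E away from its scaffold until mTORC1 phosphorylates them, and none of the 4 genes of this group passed. EIF4EBP1 was at 61.7, 72.2, 95.4 and 68.9 CPM in progesterone R1, R2, R3 and R6, against 66.9, 82.3, 108 and 85.0 CPM in DMSO R1, R3, R7 and R9. The groups overlapped, with progesterone R3 and DMSO R7 the highest of their groups. The 95% interval of its log2 fold change ran from -0.56 to 0.17, and the value was 0.012 without R7 and R9. EIF4EBP2 was at 44.6 ± 6.35 CPM with progesterone and 51.5 ± 9.83 CPM with DMSO (SD, n = 4 each), with an interval from -0.53 to 0.12. EIF4EBP3 was at 4.59 ± 0.525 and 4.42 ± 0.424 CPM, and the eIF4E transporter EIF4ENIF1 at 49.7 ± 2.55 and 51.4 ± 2.87 CPM. The ratio of EIF4EBP1 to EIF4E counts averaged 1.39 ± 0.306 with progesterone and 1.45 ± 0.185 with DMSO, and that of EIF4EBP2 to EIF4E 0.839 ± 0.179 and 0.875 ± 0.126. Both overlapped between the groups.

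**Figure D3:**
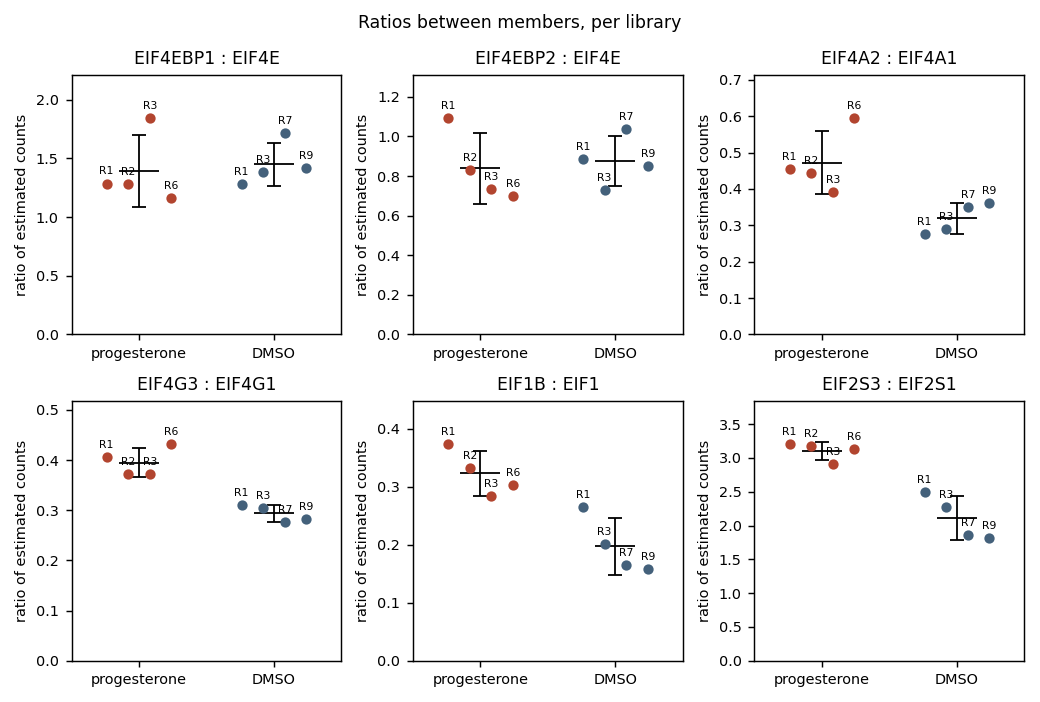
Each panel shows the ratio of estimated counts of a pair of members in each library (vertical axis, from 0), progesterone left of DMSO, with the mean and SD (n = 4) in black. The ratios to EIF4E overlap between the groups. Those of EIF4A2 to EIF4A1, EIF4G3 to EIF4G1, EIF1B to EIF1 and EIF2S3 to EIF2S1 are higher in every progesterone library. They reuse the values of their members, so they are not separate support. Ratios were not divided here by transcript length and do not give molar amounts.

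EIF5A, the hypusine-bearing factor that helps the ribosome past difficult peptide bonds, was at 639, 658, 685 and 596 CPM in progesterone R1, R2, R3 and R6, against 686, 729, 818 and 797 CPM in DMSO R1, R3, R7 and R9. The highest progesterone library stood just under the lowest DMSO library, and the gene did not pass (log2 fold change -0.23 ± 0.09 SE, with an edgeR adjusted p of 0.145). The paralog EIF5A2 was at 5.69 ± 0.772 CPM with progesterone and 7.34 ± 0.723 CPM with DMSO (SD, n = 4 each; -0.37 ± 0.16 SE, with an edgeR adjusted p of 0.174). EIF6, which keeps the large ribosomal subunit from joining too early, was at 58.7 ± 6.71 and 72.1 ± 13.3 CPM (edgeR adjusted p = 0.190). The fit without R7 and R9 gave -0.12 for EIF5A, -0.42 for EIF5A2 and -0.09 for EIF6.

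None of the elongation factor genes passed. The median log2 fold change of the 6 eEF1 genes was 0.27 (0.22 without R7 and R9). At 3 of them (50%), EEF1A1, EEF1B2 and EEF1G, the groups did not overlap, beside 16.2% of all genes tested. EEF1A1 (282220, chromosome 9), the factor that delivers aminoacyl-tRNA, was at 7692, 7912, 7678 and 7625 CPM in progesterone R1, R2, R3 and R6, against 6917, 6857, 5751 and 7027 CPM in DMSO R1, R3, R7 and R9. The progesterone libraries lay close together and DMSO R7 was far below the rest of its group (log2 fold change 0.22 ± 0.10 SE, with an edgeR adjusted p of 0.183, and 0.18 without R7 and R9). EEF1A1 took between 0.763% and 0.791% of scaled counts with progesterone and between 0.575% and 0.703% with DMSO. A pair of EEF1A1 pseudogenes held at most 1.21% and 0.00658% of its estimated counts. EEF1A2, the muscle and neuron form, was at 1.03 ± 0.573 CPM with progesterone and 0.798 ± 0.262 CPM with DMSO, with an interval of its log2 fold change from -0.55 to 1.27.

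The exchange factor subunits EEF1B2 and EEF1G had log2 fold changes of 0.48 ± 0.14 and 0.30 ± 0.08 SE (edgeR adjusted p = 0.0756 and 0.0736). EEF1B2 was at 238, 322, 278 and 389 CPM in progesterone R1, R2, R3 and R6, against 221, 223, 207 and 228 CPM in DMSO R1, R3, R7 and R9. The spread among progesterone libraries was wide and that among DMSO libraries narrow. EEF1G was at 669 ± 29.2 CPM with progesterone and 545 ± 30.0 CPM with DMSO (SD, n = 4 each), and a pseudogene of EEF1G held at most 11.99% of its estimated counts. EEF1D, the remaining exchange subunit, was at 265 ± 19.2 and 223 ± 26.3 CPM (edgeR adjusted p = 0.154). Leaving out R7 and R9 gave log2 fold changes of 0.48 for EEF1B2 and 0.25 for EEF1G, and of 0.13 for EEF1D against 0.25 with 8 libraries. EEF1E1, which belongs to the aminoacyl-tRNA synthetase complex, had a log2 fold change of -0.14.

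EEF2 (281138, chromosome 7), the translocase, was at 2656, 2311, 2556 and 2159.7 CPM in progesterone R1, R2, R3 and R6, against 1888, 1887, 1909 and 2013 CPM in DMSO R1, R3, R7 and R9. The groups did not overlap (log2 fold change 0.33 ± 0.10 SE, with an edgeR adjusted p of 0.0790, and 0.37 without R7 and R9). EEF2K, the kinase that inactivates eEF2, was at 147, 121, 95.8 and 107 CPM in progesterone R1, R2, R3 and R6, against 109, 84.9, 70.1 and 70.8 CPM in DMSO R1, R3, R7 and R9. DMSO R1 lay above progesterone R3 and R6, so the groups overlapped (0.49 ± 0.17 SE, with an edgeR adjusted p of 0.109, and 0.29 without R7 and R9). The 4 methyltransferases of elongation factors, EEF1AKMT1, EEF1AKMT2, EEF1AKMT3 and EEF2KMT, overlapped between the groups, with log2 fold changes from -0.17 to 0.17. The value of EEF1AKMT2 was 0.41 without R7 and R9. Its level was between 9.26 and 13.0 CPM with progesterone, and with DMSO it was 9.97 and 6.24 CPM in R1 and R3 but 15.2 and 16.7 CPM in R7 and R9.

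Of 43 related genes of translation control, 42 were tested and none passed (edgeR adjusted p). An unadjusted p under 0.05 was found for 4 higher (9.52%, beside 12.3% of all genes tested) and 11 lower (26.2%, beside 14.5%). All of these lower genes except DPH2 had DMSO R7 and R9 as the highest libraries, beside 79.3% of all genes lower at that p. DESeq2 called 5 (11.9%, beside 13.5% of all genes) and limma voom 0 (2.04% of all genes). Of 8 termination and recycling factors, the release factor GTPase GSPT1 was at 126 ± 4.28 CPM with progesterone and 181 ± 33.6 CPM with DMSO (SD, n = 4 each; log2 fold change -0.53 ± 0.12 SE, with an edgeR adjusted p of 0.0516). The recycling ATPase ABCE1 had a log2 fold change of -0.27 and the stop codon reader ETF1 of -0.29, and without R7 and R9 the 3 values were -0.27, -0.18 and -0.04. Of the poly(A)-binding genes, PABPC1 was at 1133 ± 83.5 CPM with progesterone and 863 ± 112 CPM with DMSO (0.39 ± 0.11 SE, with an edgeR adjusted p of 0.0744), and 0.45 without R7 and R9. PAIP2, a repressor of the poly(A)-binding protein, had a log2 fold change of 0.48 and its relative PAIP2B of -0.44 (0.31 and -0.20 without R7 and R9).

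Of 14 tested mTORC1 and MNK genes, MKNK1, a kinase of eIF4E, had a log2 fold change of -0.36, TSC2, an inhibitor of mTORC1, of 0.38, and RPTOR, which brings substrates to mTORC1, of -0.24. In each of these, R7 and R9 were the extreme DMSO libraries, and the values without them were -0.18, 0.16 and -0.09. The kinase MTOR was at 191 ± 28.3 CPM with progesterone and 196 ± 9.51 CPM with DMSO. Among eIF2 kinases and phosphatase subunits, the double-stranded RNA kinase EIF2AK2 had a log2 fold change of -0.29, the inducible phosphatase subunit PPP1R15A of 0.31 and the constitutive PPP1R15B of -0.24, with edgeR adjusted p between 0.165 and 0.303. Their values without R7 and R9 were -0.12, 0.53 and 0.041. Of 9 hypusine and diphthamide enzymes, which modify eIF5A and eEF2, DPH2 and DPH3 had log2 fold changes of -0.24 and -0.26 and DHPS of 0.22 (-0.20, -0.15 and 0.16 without R7 and R9).

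Across libraries, DMSO R7 and R9 were both higher than the other 6 libraries at 17 tested members (28.8%, beside 25.2% of all genes tested) and both lower at 8 (13.6%, beside 24.0%). Of the 12 members with a lower level in progesterone and an unadjusted p under 0.05, 9 (75%) had R7 and R9 as the highest libraries, beside 79.3% of all genes lower at that p. The sign of the log2 fold change differed with and without these libraries at 14 members, none of which passed in either fit, and 45 members kept it. Summed over all 60 members, the share of scaled counts was between 2.07% and 2.14% with progesterone and between 1.90% and 2.08% with DMSO, and DMSO R9 was the DMSO library within the progesterone range. Without EEF1A1 the shares were 1.31% to 1.37% and 1.23% to 1.38%, and overlapped.

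**Figure D4:**
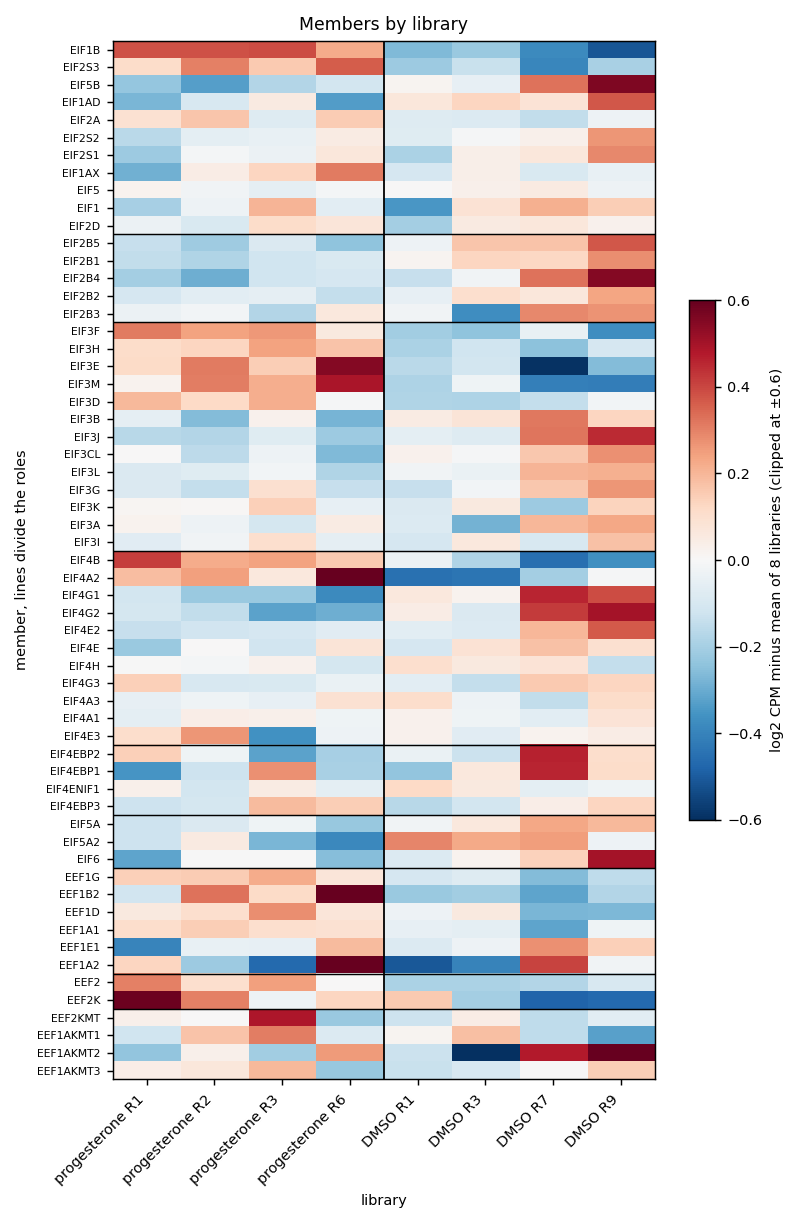
Rows are the 59 tested members in the order of their roles and columns the 8 libraries, progesterone left of DMSO; colour gives log2 CPM minus the mean of the 8 libraries. EIF1B, EIF2S3, EIF3F, EIF3H and EIF4B are above their mean in all progesterone libraries, while EIF4G1, EIF4G2 and EIF5B are highest in DMSO R7 and R9.

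The 76 cytosolic ribosomal protein genes, set beside the factors they work with, had a narrower spread of log2 fold changes, with a standard deviation of 0.14 against 0.30 for the translation factors. All 76 had a positive log2 fold change (median 0.39, and 0.34 without R7 and R9), and 1 passed, beside 2.65% of all genes tested. An unadjusted p under 0.05 was reached by 72, all higher, beside 12.3% of all genes tested that were higher at that p. The groups did not overlap at 36 (47.4%), all higher with progesterone, beside 7.95% of all genes tested. The median deviation of the 76 genes from the mean of the 8 libraries was -0.06, 0.20, 0.23 and 0.45 (log2) in progesterone R1, R2, R3 and R6, against -0.14, -0.06, -0.30 and -0.25 in DMSO R1, R3, R7 and R9. For the translation factors the same deviation was -0.05, -0.01, 0.02 and -0.03 in progesterone R1, R2, R3 and R6, against -0.08, -0.03, 0.07 and 0.11 in DMSO R1, R3, R7 and R9. Progesterone R6 was thus the highest library for the ribosomal proteins and lay within the range of the others for the median translation factor. EIF2S3, EIF1AX, EIF3E, EIF3M, EIF4A2, EEF1B2 and EEF1A2 had their highest value in that library, 7 of 59 members (11.9%), beside 15.0% of all genes tested. The 35 aminoacyl-tRNA synthetases had a median of -0.14, with 1 higher and 1 lower past the threshold, beside 1.69% and 0.959% of all genes tested.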

How the data were processed

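Libraries had been made with a stranded mRNA kit, per the labels' protocols. The deposited values were read as estimated counts per gene. Salmon 1.4.0, bcl2fastq and the bovine genome build ARS-UCD1.2 are named, without roles, per the submitters' processing notes. The authors' table calls itself length-normalized; no source used here gives the method. Estimated counts divide reads between near-identical copies, so genes with pseudogenes or paralogs are uncertain. CPM was not divided here by transcript length, and whether length enters the deposited values is not known. Levels are therefore not compared between genes.

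Estimated counts were rounded to whole numbers, filtered with filterByExpr, scaled by TMM and tested with edgeR 4.0.16 (quasi-likelihood, robust, two-sided) between 4 progesterone and 4 DMSO libraries. P-values were adjusted by Benjamini-Hochberg over all 13557 genes, with a threshold of 0.05. SE is the size of a log2 fold change divided by the square root of F, and 95% intervals use its t distribution. CPM is TMM-scaled, and deviations use log2 CPM with a prior count of 2. R was 4.3.3, limma 3.58.1 and DESeq2 1.42.0. Column names give the group of a library but not its sample. Members, lists and tests were chosen with earlier results of these data known. Named are called members, the 4 with the smallest p and the highest CPM in each role, fixed core factors, the 3 related genes with the smallest p per list, and others chosen after their values were seen, such as EIF3D, EIF3B, EIF3J, EIF3CL, EIF2S1, EIF2S2 and EIF4G3. No pair of libraries within a group agreed within sampling noise (chi-square per degree of freedom of at least 14.9). The tests were tried on simulated counts with a set spread and no split like that of DMSO R7 and R9. That trial does not show how the tests perform on these libraries.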

Additional observations from a re-analysis of the deposited data

Results flagged for a closer look

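Of 90 groups of 4 libraries examined, 2 had a library far from the others, and chance flags about 1 in 20 groups. EIF1B was at 116 CPM in progesterone R6, with the other progesterone libraries between 130.1 and 131 CPM. EEF1A1 was at 5751 CPM in DMSO R7, with the other DMSO libraries between 6857 and 7027 CPM. EIF1B still passed without progesterone R6 (edgeR adjusted p = 0.0242), and EEF1A1 did not pass with any single library left out.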

How the results depend on the processing

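With all genes, 359 passed; 27 passed at a threshold of 0.01, 1830 in DESeq2 and 162 without DMSO R7 and R9, and leaving out 1 library gave 42 to 1782. Of the members, 5 passed; 1 did at 0.01, 18 in DESeq2, 3 without R7 and R9 and 2 with a model term for these libraries, and leaving out 1 library gave 1 to 13. Of the related genes none passed; 1 did with library size only and 5 in DESeq2, and leaving out 1 library gave 0 to 5. The members' median log2 fold change of -0.043 was 0.040 without R7 and R9 and 0.027 with the model term. Of the called members, EIF3H did not pass in limma voom or without a filter (edgeR adjusted p = 0.0503 without a filter), and EIF4B not with library size only (0.0562). The cause of these moves was not tested.

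Only the column numbers R1 and R3 occur in both groups, and nothing says that they mark a shared culture. With the column number as a replicate block, 2531 genes, 16 members and 10 related genes passed and the members' median was 0.038. That fit rests on 1 residual degree of freedom, and R7 and R9 have no partner in it. Deviations from the group means correlated across genes at 0.234 for the R1 pair and 0.211 for the R3 pair, against -0.161 to 0.156 for pairs of different numbers.

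Log2 fold changes of genes that did not pass turned sign. Without R7 and R9 they were 0.0027 for EIF2S2, 0.040 for EIF2S1, 0.11 for EIF1, 0.18 for EIF3A, 0.10 for EIF4G3, 0.011 for EIF4A1, 0.0091 for EIF4EBP2, 0.012 for EIF4EBP1, -0.0079 for EEF1AKMT1, 0.41 for EEF1AKMT2 and 0.041 for PPP1R15B. With the model term they were 0.027 for EIF2S1, 0.10 for EIF1, 0.17 for EIF3A, 0.087 for EIF4G3, -0.021 for EEF1AKMT1, 0.40 for EEF1AKMT2 and 0.027 for PPP1R15B. With the replicate block they were 0.13 for EIF1, 0.14 for EIF3A, 0.13 for EIF4G3, 0.0020 for EIF4EBP2, 0.051 for EIF4EBP1, -0.0018 for EEF1AKMT1, 0.22 for EEF1AKMT2 and 0.054 for PPP1R15B. EIF4A1 was at 0.019 without a filter. Leaving out 1 library gave -0.16 to 0.0073 for EIF1, -0.13 to 0.028 for EIF3A, -0.031 to 0.019 for EIF4A1, -0.10 to 0.0042 for EIF4G3, -0.078 to 0.59 for EEF1A2, -0.38 to 0.031 for EEF1AKMT2 and -0.016 to 0.12 for EEF1AKMT3.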
